A study of Homo sapiens with 21 samples.

Results

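A set of 9 genes of mucous secretion were followed in the tumors: the transmembrane mucins MUC1 and MUC13, the gel-forming mucins MUC5AC and MUC5B, the trefoil factors TFF1, TFF2 and TFF3, the disulfide isomerase AGR2 and the transcription factor SPDEF. They were taken by gene symbol from the table of raw counts, which holds 60651 genes, and all 9 were found once. They were chosen by family and symbol with the levels and fold changes of these same libraries already in view, so the fitted p-values describe these tumors and are no independent support for a direction. The data were total RNA libraries from subcutaneous tumors of A549-Luc2 cells, a human lung adenocarcinoma line that carries luciferase. The cells were mixed with Matrigel and grown in female athymic nu/nu mice that were 6 to 8 weeks old, and treatment began once tumors averaged 80 to 100 mm3. Mice were randomized to 10 per group, and 7 tumors per group were sequenced. Mice of the Control group received the formulation solution by daily oral gavage, and mice of the Oxy186 and Oxy210 groups received the respective oxysterol derivative in that solution at 50 mg/kg. All tumors came from the same line, the mice lacked a normal T cell compartment, and only reads assigned to the human genome were counted.

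Mucins are large proteins whose serine- and threonine-rich stretches carry dense O-linked sugar chains. MUC5AC and MUC5B are secreted, each forms polymers through disulfide bonds, and they make up the mucus gel of the airway. MUC1 and MUC13 stay in the apical membrane, where their cytoplasmic tails can take part in signaling. Trefoil factors are small disulfide-rich peptides released together with mucins, AGR2 resides in the endoplasmic reticulum and is needed for mucin folding, and SPDEF is an ETS family factor that drives goblet cell differentiation. In the normal airway some of these genes, though not the whole set, mark goblet and submucosal gland cells. Mucinous lung adenocarcinomas often express such genes.

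All 21 libraries had similar depth, from 13787493 to 17865119 counts on human genes, and no 2 tumors of a group were alike within counting error (the most similar of 63 pairs had a chi-square of 10.9 per degree of freedom). The tumors were epithelial, since KRT18 and KRT8, keratins of simple epithelia, had median levels of 1096 and 742 RPKM (TMM-normalized counts scaled to library size and to kilobases of exon). Of 9 markers of alveolar type II cells 3 were over 1 CPM (counts scaled to library size with TMM factors), led by the lipid transporter ABCA3 at 5.99 RPKM, and they summed to between 28.9 and 95.4 CPM. The surfactant genes SFTPA1, SFTPA2, SFTPB and SFTPC had no more than 8 counts in any library and 0 in 16, 16, 13 and 13 of 21. The 13 markers of stroma, vessel and blood summed to 118 to 233 CPM in Control, 104 to 265 CPM in Oxy186 and 80.1 to 160.4 CPM in Oxy210 tumors, with PTPRC, the leukocyte antigen CD45, at no more than 8 counts. The libraries differed in how their counts followed the GC content of genes. This GC slope, the deviation in log2 CPM per 10 percentage points of exon GC, ran from -0.15 to 0.40 in Control, from -0.33 to 0.26 in Oxy210 and from -0.51 to 0.49 in Oxy186, and Oxy186 r1-r4, with -0.30, -0.18, -0.51 and -0.47, were 4 of the 5 lowest of all 21 libraries.

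Several members lie side by side in the genome (GRCh38, GENCODE 44). MUC5AC (ENSG00000215182) at chr11:1157953-1201138 and MUC5B (ENSG00000117983) at chr11:1223066-1262172 are both on the plus strand with 21927 bases between them. TFF3 (ENSG00000160180) at chr21:42311667-42315409, TFF2 (ENSG00000160181) at chr21:42346357-42350997 and TFF1 (ENSG00000160182) at chr21:42362282-42366535 lie on the minus strand within 54869 bases. MUC1 (ENSG00000185499) is at chr1:155185824-155192916, MUC13 (ENSG00000173702) at chr3:124905442-124953819, SPDEF (ENSG00000124664) at chr6:34537802-34556333 and AGR2 (ENSG00000106541) at chr7:16791811-16833433, all on the minus strand. Exons of an antisense gene, MUC5B-AS1, overlap 2.33% of MUC5B exon bases, and a further gene on the same strand overlaps a small stretch of MUC1. Whether counting used strand is not given in the sources used here.

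The gel-forming mucins hold repeated exon sequence, which matters for counts of uniquely mapped reads. The longest exon block of MUC5AC spans 10371 bases and that of MUC5B 10893 bases. Of all runs of 100 bases in their exons, 14.1% recurred within MUC5AC and 23.9% within MUC5B, against 0% in the other 7 members. Of runs of 24 bases, 39.2% recurred within MUC5AC, 40.3% within MUC5B, 1.60% within MUC13 and 0.81% within MUC1. These shares describe the reference genome, and repeat lengths in the tumor cells were not examined. The most frequent run of 24 bases occurred 16 times in MUC5AC, first at chr11:1185245-1185268, and 6 times in MUC5B, first at chr11:1244246-1244269. Both are given here in the direction of transcription to show this repeat structure.
MUC5AC repeat: ctcctacaaccagcacaacctctg
MUC5B repeat: tcctccaccccagggaccacctgg

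Promoter sequences were found in the RefSeq table (GRCh38.p14) for 4 of the 9 members: MUC1, MUC13, AGR2 and SPDEF. The 250 bases before the transcription start are shown for MUC1 and SPDEF, the members with the largest differences in the study's own comparison of Oxy186 r1-r4 with Control, and for AGR2, the member whose level followed that of SPDEF most closely once GC trends were removed. Capitals mark matches, on either strand, to TATAAA, the TATA box core, and GTTAAT, a core of sites for the hepatocyte nuclear factor HNF1.
MUC1 chr1:155192910-155193159 (minus strand): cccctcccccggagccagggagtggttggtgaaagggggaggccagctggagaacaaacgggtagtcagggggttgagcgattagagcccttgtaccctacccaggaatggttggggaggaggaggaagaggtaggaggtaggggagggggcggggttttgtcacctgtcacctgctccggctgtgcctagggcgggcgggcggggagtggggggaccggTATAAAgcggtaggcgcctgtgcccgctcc
SPDEF chr6:34556330-34556579 (minus strand): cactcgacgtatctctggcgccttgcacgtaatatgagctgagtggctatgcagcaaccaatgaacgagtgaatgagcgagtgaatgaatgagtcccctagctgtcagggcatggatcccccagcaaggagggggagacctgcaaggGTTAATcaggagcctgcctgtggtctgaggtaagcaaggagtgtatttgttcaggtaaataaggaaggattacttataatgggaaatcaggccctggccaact
AGR2 chr7:16805000-16805249 (minus strand): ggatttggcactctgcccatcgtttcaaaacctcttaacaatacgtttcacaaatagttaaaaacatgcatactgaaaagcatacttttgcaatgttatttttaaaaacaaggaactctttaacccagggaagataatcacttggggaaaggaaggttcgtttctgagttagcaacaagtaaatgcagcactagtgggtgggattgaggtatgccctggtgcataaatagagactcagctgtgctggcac
MUC1 held TATAAA from position -30 relative to this start and -24 relative to a second listed start, SPDEF held GTTAAT from position -103, MUC13 held GTTAAT from position -245, and AGR2 held neither in this window. Of 35116 promoters of the same length, 10.7% held TATAAA and 6.23% held GTTAAT. The GC content of these windows was 66.0% for MUC1, 50.8% for SPDEF and 40.4% for AGR2.

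Levels per kilobase showed a mucous secretory pattern with AGR2 and TFF1 at the top. Over all 21 libraries AGR2 ranked 47 and TFF1 ranked 55 of 16952 genes by mean RPKM. Their medians were 604 and 496 RPKM. MUC5AC followed at 235 RPKM, TFF3 at 216 RPKM and MUC5B at 102 RPKM. MUC13 had 80.0 RPKM, MUC1 37.8 RPKM, SPDEF 26.3 RPKM and TFF2 8.14 RPKM. Not every neighbor in this order was separated by library: AGR2 was above TFF1 in 13 of 21 libraries and MUC5AC above TFF3 in 12, whereas TFF3 was above MUC5B, MUC13 above MUC1 and MUC1 above SPDEF in all 21. MUC5B exceeded MUC13 in 16 libraries, TFF1 exceeded MUC5AC in 17 and SPDEF exceeded TFF2 in 20. Because its transcript is long, MUC5AC alone took 0.101% to 1.01% of all human counts, and the 9 members together 0.477% to 1.71%.

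**Figure D1:**
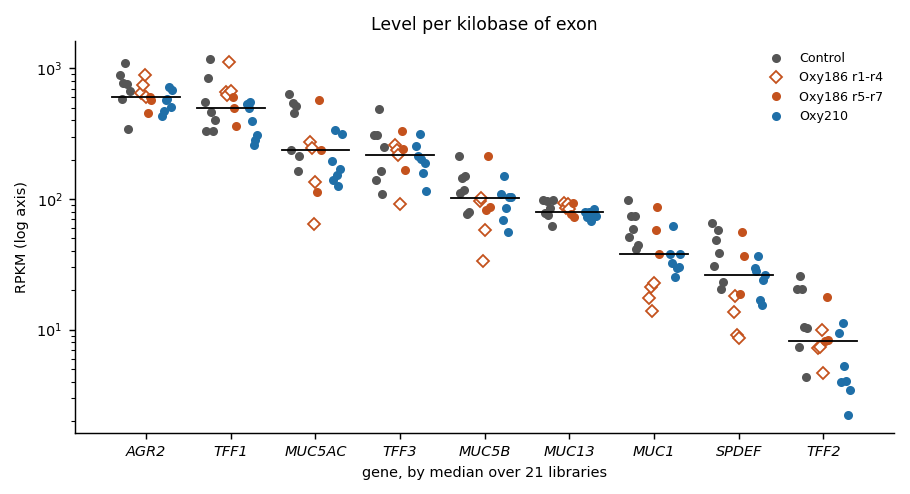
Level of each member per kilobase of exon (RPKM, log axis) in 21 libraries, with genes ordered by their median over all libraries (black line). AGR2 and TFF1 had the highest medians, 604 and 496 RPKM, and TFF2 the lowest, 8.14 RPKM.

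The members differed widely in how constant they were. MUC13 was the steadiest, with its highest library 1.60 times its lowest over all 21, and AGR2 spanned 3.19-fold. The spans were 4.59-fold for TFF1, 5.41-fold for TFF3, 6.45-fold for MUC5B, 7.12-fold for MUC1 and 7.61-fold for SPDEF. MUC5AC spanned 9.90-fold and TFF2 11.5-fold, the latter with 25 to 317 counts per library.

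The membrane mucin MUC1 had lower medians in both treated groups than in Control, with overlapping ranges. Its lowest, median and highest values were 99.6, 141 and 235 CPM in Control, 33.0, 54.6 and 209.8 CPM in Oxy186, and 60.3, 77.9 and 149 CPM in Oxy210. Oxy186 r1-r4, the tumors that the study carried forward, had 41.9, 50.9, 33.0 and 54.6 CPM, each below every Control tumor, while r5-r7 had 139, 209.8 and 90.8 CPM. In bulk tumor RNA, fewer cells that express MUC1 and less of its RNA per cell cannot be told apart. MUC13, the other membrane mucin, hardly varied: it had 217 to 345 CPM in Control with a median of 301, 253 to 327 CPM in Oxy186 with a median of 300.0, and 237 to 294 CPM in Oxy210 with a median of 265. The 3 groups overlapped for both genes.

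MUC5AC had the highest median count of the members in all 3 groups, and MUC5B and AGR2 followed in either order. MUC5AC had 2848, 7893 and 11137 CPM as lowest, median and highest values in Control, 1124, 4105 and 9977 CPM in Oxy186, and 2179.9, 2976 and 5861 CPM in Oxy210. MUC5B had 1436, 2197 and 3963 CPM in Control, 619.8, 1607 and 4001 CPM in Oxy186, and 1047, 1928 and 2806 CPM in Oxy210. The groups overlapped for both, and Oxy186 r6 held the highest treated value of each while Oxy186 r3 held the lowest of all.

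Among the trefoil factors, TFF1 was the only member with a higher median in Oxy186 than in Control. TFF1 had 163, 226 and 585 CPM in Control, 179, 305 and 553 CPM in Oxy186, and 128, 194 and 270.5 CPM in Oxy210. TFF2, the spasmolytic peptide of gastric mucous neck cells, had 3.01, 7.28 and 17.96 CPM in Control, 3.26, 5.69 and 12.4 CPM in Oxy186, and 1.56, 2.84 and 7.86 CPM in Oxy210. TFF3, the trefoil factor of intestinal goblet cells, had 100.2, 229.7 and 454 CPM in Control, 84.0, 219 and 306 CPM in Oxy186, and 106, 187 and 289.9 CPM in Oxy210. All 3 overlapped between the groups, and Control r4 was the highest tumor for TFF1 and TFF3.

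AGR2 and SPDEF, the folding factor and the regulator, behaved differently from each other. AGR2 had 944, 2110.0 and 3012 CPM in Control, 1262, 1669 and 2447 CPM in Oxy186, and 1200.5, 1581 and 1982 CPM in Oxy210. SPDEF had 38.9, 73.6 and 126 CPM in Control, 16.6, 34.8 and 108 CPM in Oxy186, and 29.5, 50.2 and 69.7 CPM in Oxy210. Oxy186 r1-r4 had 25.9, 34.8, 17.5 and 16.6 CPM of SPDEF, again below every Control tumor, and their AGR2 values of 1803, 2070 and 2447 CPM in r1-r3 and 1669 CPM in r4 lay inside the Control range.

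**Figure D2:**
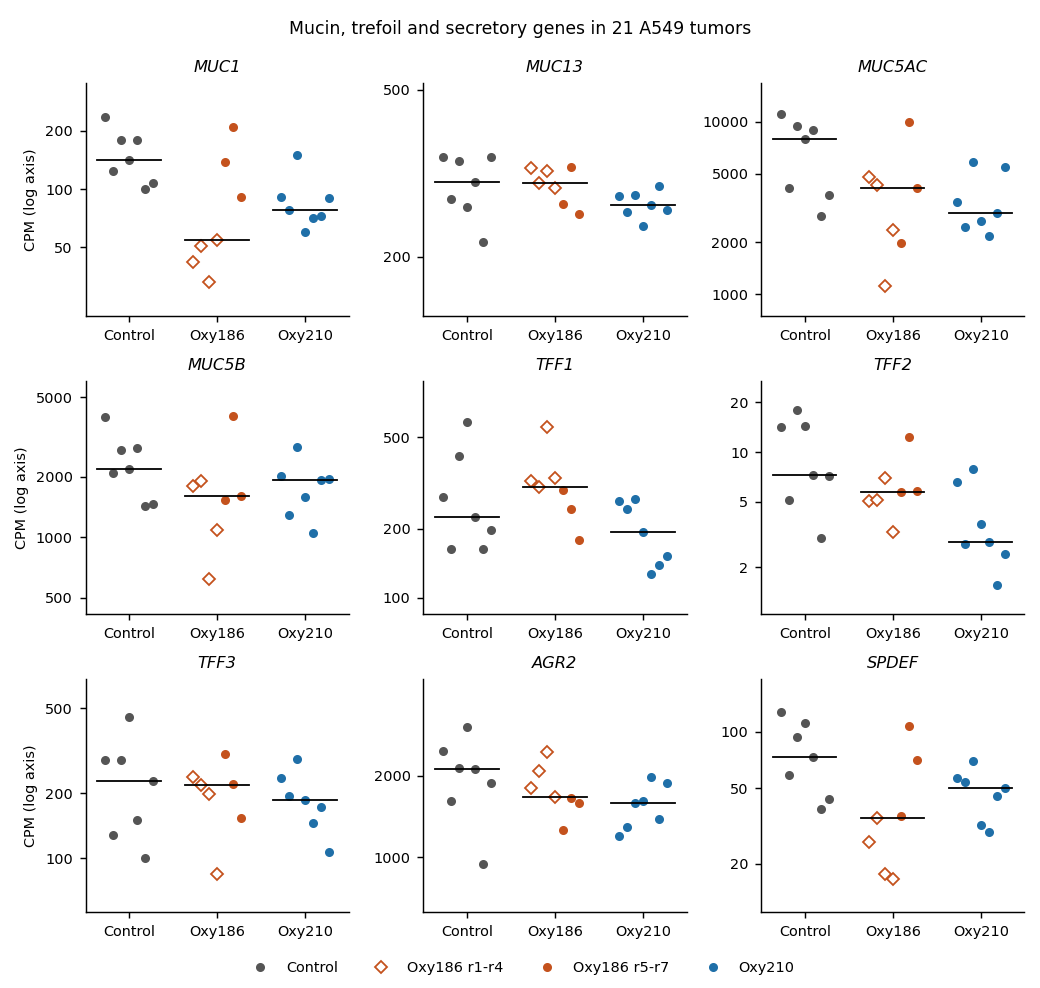
Level (CPM, log axis) of each member in the 7 Control, 7 Oxy186 and 7 Oxy210 tumors, with r1-r4 of Oxy186 as open diamonds and group medians as lines. MUC1 and SPDEF of r1-r4 lie below all Control tumors, at no more than 54.6 and 34.8 CPM, and MUC13 stays between 217 and 345 CPM.

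In all 7 Oxy186 tumors against Control, no member was called, which here required more than a 2-fold difference together with an adjusted p of 0.05 or less (quasi-likelihood test of edgeR, Benjamini-Hochberg). Of 16291 genes tested 0 were called (0% lower and 0% higher), likewise by DESeq2 and limma voom, while 384 were lower (2.36%) and 234 higher (1.44%) at an unadjusted p under 0.05. Log2 fold changes were below 0 for 8 of 9 members, with a median of -0.42 against -0.01 over all genes tested. SPDEF had -0.83 (SE 0.39, adjusted p = 0.862) and MUC1 -0.80 (SE 0.35, adjusted p = 0.862), the 2 members with an unadjusted p under 0.05. MUC5AC had -0.75, TFF2 -0.65, MUC5B -0.42, TFF3 -0.20, AGR2 -0.19, MUC13 -0.02 and TFF1 0.13. Offsets for the GC trend of each library left SPDEF at -0.45 and MUC1 at -0.64, and moved MUC5B to 0.11 and TFF1 to 0.46. MUC13 took either sign near 0, with 0.01 under DESeq2's normalization.

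In Oxy210 tumors against Control, log2 fold changes were below 0 for 9 of 9 members, with a median of -0.52 against 0.01 over all genes tested, and again none was called (0 of 16396 genes, 0% lower and 0% higher). Here 4 members had an unadjusted p under 0.05, beside 8.12% of all genes lower and 5.72% higher. None of the 9 separated the groups, as 0.0793% of genes did with lower and 0.0671% with higher values. TFF2 had -1.30 (SE 0.38, adjusted p = 0.247) and MUC1 -0.78 (SE 0.20, adjusted p = 0.212). MUC5AC had -0.92 (SE 0.29, adjusted p = 0.27) and SPDEF -0.67 (SE 0.24, adjusted p = 0.287). TFF1 had -0.52, MUC5B -0.38, AGR2 -0.34, TFF3 -0.27 and MUC13 -0.13, each with a 95% interval that held 0. With GC offsets all 9 stayed below 0, TFF2 at -1.23, MUC5AC at -0.68, MUC1 at -0.60 and AGR2 at -0.50, with MUC5B at -0.05. DESeq2, which called 19 genes lower and 3 higher here, gave MUC1 -0.79 with an adjusted p of 0.0311, under the fold threshold. The Oxy186 and Oxy210 differences share the same 7 Control tumors and are therefore not independent of each other.

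The 2 compounds, given at the same dose, differed most in TFF1 and TFF2. Oxy186 was above Oxy210 by 0.68 on the log2 scale for TFF1 (95% interval 0.20 to 1.15) and by 0.67 for TFF2 (-0.05 to 1.39), and neither passed adjustment over 16361 genes (adjusted p = 1.0 in edgeR's test for both, 0.174 by DESeq2 for TFF1). GC offsets gave 0.86 for TFF1 (0.31 to 1.41, adjusted p = 0.452) and 0.67 for TFF2 (0.06 to 1.29, adjusted p = 0.596). Differences of the remaining 7 members lay between -0.14 and 0.19, but their intervals were wide for MUC1 (-0.73 to 0.74), MUC5AC (-0.60 to 0.98), SPDEF (-0.89 to 0.62) and MUC5B (-0.66 to 0.63), and hold sizeable differences in either direction. The intervals were narrower for MUC13 (-0.06 to 0.35) and AGR2 (-0.16 to 0.52). No member and 0% of genes in either direction were called, with 0.917% lower and 3.14% higher at an unadjusted p under 0.05, where TFF1 was the 1 member. With GC offsets 0.00611% were called higher, 1 gene and no member. The compounds' values overlapped for 9 of 9 members, beside 0.0306% of genes without overlap and lower and 0.0428% higher. The labels give these compounds by code only, and no structural difference is named here.

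**Figure D3:**
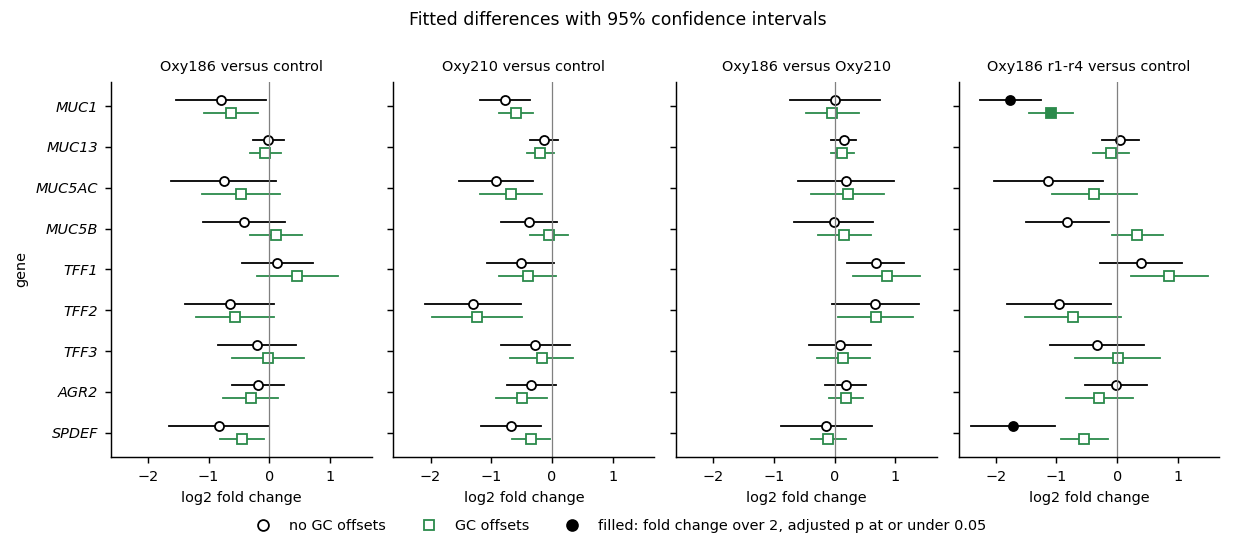
Log2 fold change of each member with its 95% interval in 4 comparisons, without (circles) and with (squares) offsets for the GC trend of each library. Filled marks met both thresholds (2-fold, adjusted p of 0.05), which held for MUC1 and SPDEF in Oxy186 r1-r4 against Control, and for MUC1 alone with GC offsets.

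The study compared 4 of the 7 Oxy186 tumors, r1-r4, with Control, after picking them from a principal component plot of these data, so this comparison tests no treatment. MUC1 and SPDEF fell, by 1.76 (SE 0.24, adjusted p = 0.000639) and 1.72 (SE 0.33, adjusted p = 0.00254) on the log2 scale, or 3.38-fold and 3.30-fold. They were 2 of 9 members called lower, beside 8.13% of 16852 genes called lower and 0.214% higher, and they were also the 2 members whose r1-r4 and Control values did not overlap, both lower, beside 8.54% of genes without overlap and lower and 3.1% higher. Both gel-forming mucins and TFF2 had lower values that did not pass: MUC5AC -1.13 (SE 0.42, adjusted p = 0.069), TFF2 -0.96 (SE 0.41, adjusted p = 0.106) and MUC5B -0.82 (SE 0.32, adjusted p = 0.0799). TFF3 had -0.34, AGR2 -0.02, MUC13 0.05 and TFF1 0.39 (95% interval -0.29 to 1.06). MUC1 and SPDEF were called whichever of the 4 Oxy186 and 7 Control tumors was left out, from -1.84 to -1.62 and from -1.96 to -1.53. MUC5AC was called without Control r6 (-1.27, adjusted p = 0.0345) or Control r7 (-1.24, adjusted p = 0.047), and TFF2 without Control r6 (-1.12, adjusted p = 0.0315).

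Differences in r1-r4 moved with GC content across the genome. With all tested genes cut into 10 equal bins by exon GC, the highest bin, where SPDEF (64.5%) and MUC5B (64.6%) lie, had a median log2 fold change of -1.08, and the next, which holds MUC5AC (60.3%) and MUC1 (58.9%), had -0.64. The bins that hold MUC13 (44.9%) and AGR2 (39.7%) had 0.18 and 0.25. With GC offsets MUC1 remained called at -1.09 (SE 0.17, adjusted p = 0.00322), beside 0.854% of genes lower and 0.344% higher, whereas SPDEF had -0.54 (SE 0.18, adjusted p = 0.117) and was no longer called. MUC5AC then had -0.38 and TFF2 -0.72, MUC5B changed sign to 0.33 (SE 0.20, adjusted p = 0.397), and TFF1 had 0.85 (SE 0.30, adjusted p = 0.125).

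The same dependence was seen among libraries with group means removed. Over 21 libraries the GC slope correlated with log2 CPM of SPDEF (Pearson r = 0.93, Spearman rho = 0.92, both with permutation p = 1e-05, the smallest that 100000 permutations can give), MUC1 (r = 0.88, rho = 0.88), MUC5B (r = 0.80, rho = 0.69), MUC5AC (r = 0.68, rho = 0.61) and TFF2 (r = 0.61, rho = 0.61). Over all 12828 genes 26% had an r of 0.61 or more with the slope and 21.5% an r of -0.61 or less, so such a relation is not particular to the members. All 5 passed adjustment over the 9 members, with adjusted permutation p up to 0.00572 for r and 0.0141 for rho. TFF3 had r = 0.44 and rho = 0.53 (adjusted permutation p = 0.0715 and 0.0229). AGR2 (r = -0.16), MUC13 (r = 0.04) and TFF1 (r = 0.03) did not pass, with adjusted permutation p of 0.598, 0.893 and 0.893. Leaving out the 2 libraries farthest from the median slope gave r = 0.89 for SPDEF, 0.79 for MUC1, 0.65 for MUC5B, 0.46 for MUC5AC and 0.64 for TFF2. TFF1 joined opposite relations, with r = 0.54 within Control, -0.76 within Oxy186 and 0.93 within Oxy210, and so its pooled value describes none of the groups.

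**Figure D4:**
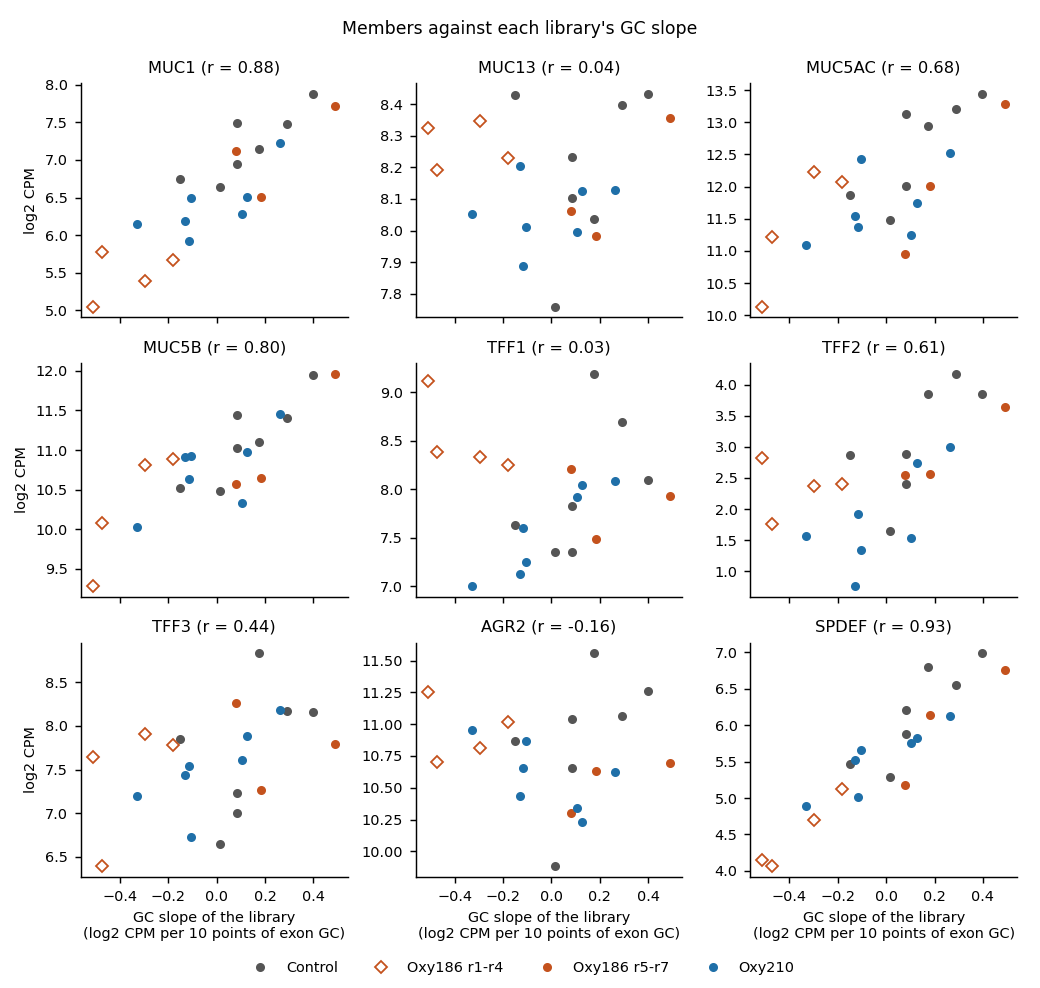
Log2 CPM of each member against the GC slope of its library for 21 libraries, with r from values after group means were removed. SPDEF (r = 0.93) and MUC1 (r = 0.88) rise along the axis with r1-r4 at the low end, while MUC13 (r = 0.04) shows no trend.

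Many members varied together from tumor to tumor. Of 36 pairs, 13 passed adjustment over all pairs with a positive r and 0 with a negative r (permutation test within groups, 21 libraries), and r ranged from -0.08 to 0.92 with a median of 0.40. The 13 pairs had r of 0.52 or more, as did 14.4% of all pairs among 12828 genes. The neighbors MUC5AC and MUC5B were the closest pair (r = 0.92, rho = 0.91, adjusted permutation p = 0.00036 for both, and r = 0.86 without the 2 libraries farthest from the median of MUC5AC). MUC1 and SPDEF had r = 0.82 and rho = 0.83 (adjusted permutation p = 0.00151 and 0.00072, and r = 0.82 without 2 libraries). The trefoil genes of chromosome 21 had r = 0.75 for TFF2 and TFF3, 0.63 for TFF1 and TFF3, and 0.61 for TFF1 and TFF2, which all passed. TFF2 also passed with SPDEF (r = 0.64), MUC5AC (r = 0.56), MUC1 (r = 0.54) and MUC5B (r = 0.52).

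Removing each library's GC trend changed which pairs stood out. Then 6 pairs passed, all positive and with r of 0.61 or more, as 3.29% of all gene pairs had: MUC5AC with MUC5B (r = 0.81), SPDEF (r = 0.70) and AGR2 (r = 0.61), AGR2 with SPDEF (r = 0.79) and TFF2 (r = 0.70), and TFF2 with TFF3 (r = 0.65). AGR2 and SPDEF had r = 0.13 and rho = 0.03 before the trend was removed and r = 0.79 and rho = 0.76 after it (adjusted permutation p = 0.693 and 0.00378 for r, 0.919 and 0.0126 for rho). Without the 2 libraries farthest from the median of AGR2 these r were -0.20 and 0.62. MUC1 and SPDEF went the other way, from r = 0.82 to 0.22 (adjusted permutation p = 0.526 after removal). Within Control alone, without any treatment and with the GC trend left in, 14 pairs passed by exact permutation over 7 tumors. Among them were MUC1 with MUC5B (r = 0.99) and AGR2 with SPDEF (r = 0.85). In these 7 tumors the GC slope had r = 0.85 with MUC1, 0.88 with MUC5B and 0.87 with SPDEF. The share of all gene pairs with such r within Control was not computed, so whether this count is particular to the members is not known. Within Oxy186 alone and within Oxy210 alone 0 of 36 passed, again with the GC trend left in. There r of AGR2 and SPDEF was -0.40 and -0.52 (adjusted exact permutation p = 0.663 and 0.451). Within single groups no r was computed with the trend removed.

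**Figure D5:**
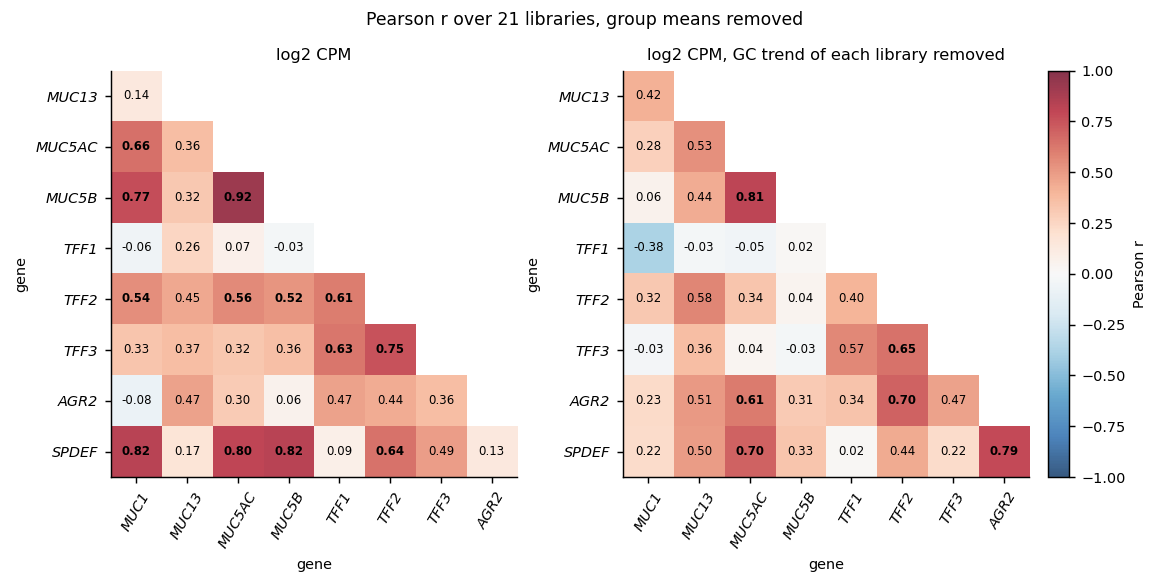
Pearson r between members over 21 libraries with group means removed, before (left) and after (right) removal of each library's GC trend, with pairs in bold that passed adjustment over 36 pairs. MUC5AC with MUC5B is high in both panels (0.92 and 0.81), AGR2 with SPDEF in the right panel alone (0.13 and 0.79), and MUC1 with SPDEF in the left alone (0.82 and 0.22).

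The genes most like each member across tumors were found by Pearson r on values with group means and GC trends removed, over 21 libraries and 12827 genes. For SPDEF these were HM13 (r = 0.93) and MYDGF (r = 0.89), and for AGR2 HEBP2 (r = 0.92) and SRPRB (r = 0.89). For MUC5AC they were RAB21 (r = 0.88) and SYVN1 (r = 0.88), for MUC5B LIX1L (r = 0.88) and EPHB3 (r = 0.83), for MUC1 MFGE8 (r = 0.83) and the pseudogene SEPTIN7P2 (r = 0.81), and for MUC13 AGFG2 (r = 0.84) and ALDH3B1 (r = 0.84). For TFF1 they were ABHD14A (r = 0.84) and COA3 (r = 0.84), for TFF2 the pseudogene MROH3P (r = 0.80) and MXD4 (r = 0.80), and for TFF3 ZNHIT1 (r = 0.85) and ASL (r = 0.82). They were the highest of 12827 values and carry no test. Before the GC trends were removed, RAB21 and SEPTIN7P2 had r = -0.09 and -0.38, and ALDH3B1, LIX1L and AGFG2 had 0.36, 0.46 and 0.48, so the likeness of these 5 depends on that step. Pseudogenes can share reads with their parent genes.

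Of 19 other mucin genes listed, CD164, a sialomucin of endosomes and the cell surface, had the highest median at 38.4 RPKM, close to that of MUC1, and MUC12, a membrane mucin, the next at 5.72 RPKM. MUC7, a salivary mucin, had 0 counts in all 21 libraries, which allows for a low level at this depth. None of the tested genes was called in any of the 4 comparisons. In Oxy210 against Control 4 of 13 tested lay below 0 (median 0.17), and in Oxy186 against Control 5 of 12 (median 0.09). MUC17 had the highest values in Oxy186 (log2 fold change 0.58, adjusted p = 0.862) and r1-r4 (0.66, adjusted p = 0.399), MUC4 the lowest in Oxy186 (-0.52, adjusted p = 0.862) and MUC6, the gastric gland mucin, in r1-r4 (-1.43, adjusted p = 0.0878).

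Of 31 enzymes that build mucin sugar chains 28 were over 1 CPM, with the highest medians in B4GALT1 at 63.9 RPKM and GALNT1, which starts O-glycosylation, at 37.9 RPKM. In r1-r4 against Control 3 of 29 tested genes were called lower, beside 8.13% of all genes, and 0 higher: B3GNT6, the core 3 synthase (-1.94, adjusted p = 0.00743), FUT2, the secretor fucosyltransferase (-1.20, adjusted p = 0.0121), and ST6GALNAC4 (-1.04, adjusted p = 0.0368). With GC offsets 0 of 29 were called, at -0.94, -0.99 and -0.02. FUT8 had the highest value (0.41, adjusted p = 0.0336, under the fold threshold). In the full groups none was called, with 22 of 29 below 0 in Oxy186 (median -0.17) and 21 of 29 in Oxy210 (median -0.22).

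Among 20 regulators of secretory cells, XBP1, the factor of the unfolded protein response, and KLF5 had the highest medians, 111 and 56.9 RPKM, while NKX2-1, the lung lineage factor, had 0 counts in 17 of 21 libraries. In r1-r4 BHLHA15 (MIST1), a factor of secretory cells (-2.81, adjusted p = 0.00323), and FOXA3 (-1.01, adjusted p = 0.0115) were called lower, 2 of 16 tested, beside 8.13% of all genes. BHLHA15, at 4 to 144 counts per library, was still called with GC offsets (-1.77, adjusted p = 0.0348), and FOXA3 was not (-0.24, adjusted p = 0.502). BHLHA15 was also the lowest of the list in all 7 Oxy186 tumors (-1.30, adjusted p = 0.862), and had -1.09 in Oxy210 (adjusted p = 0.27). SOX2 had the highest values of the list (0.36 in Oxy186 and 0.46 in r1-r4, adjusted p = 0.862 and 0.0578).

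Of 25 genes of protein folding and export, CALR and KDELR1 had the highest medians, 140 and 133 RPKM. TXNDC12, an endoplasmic reticulum protein of the thioredoxin family to which AGR2 belongs, was the only 1 of 24 tested that was called lower in r1-r4 (-1.74, adjusted p = 0.00163), beside 8.13% of all genes. It was called with GC offsets as well (-1.76, adjusted p = 0.00453), beside 0.854% of all genes lower. It had only 23 to 208 counts per library, and its difference over all 7 Oxy186 tumors was -0.07 (adjusted p = 0.982). In Oxy210 P4HB, a protein disulfide isomerase, had -0.54 (adjusted p = 0.247) and KDELR1 -0.45 (adjusted p = 0.295).

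The 28 secreted products of airway and stomach lay below 0 in Oxy210 for 11 of 11 tested (median -0.67, against 0.01 over all genes), and 6 had an unadjusted p under 0.05, beside 8.12% of all genes lower, but none was called. With GC offsets 10 of 11 lay below 0 (median -0.52) and 4 had such a p. SLPI, an antiprotease (-0.01), and TCN1, a cobalamin carrier (-0.33), had the highest medians, 159 and 108 RPKM, while FCGBP, a mucus-associated protein, had -0.69 (adjusted p = 0.288) and REG4, a gastrointestinal lectin, -0.67 (adjusted p = 0.45). In Oxy186 9 of 12 lay below 0 (median -0.27), from ITLN1 at -0.90 to REG4 at 0.40, and in r1-r4 9 of 12 (median -0.31), from FCGBP at -0.81 to REG4 at 0.86, but with GC offsets 6 of 12 (median -0.06) and 5 of 12 (median 0.01) did. SCGB1A1, the club cell secretoglobin, had 0 counts in 17 of 21 libraries and CLCA1, a goblet cell product, had 0 counts in all 21. Among the members, AGR2, MUC5AC and MUC5B had medians of 604, 235 and 102 RPKM, and the goblet cell factor SPDEF had 26.3 RPKM.

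Markers of other cell types were set beside these groups. Of 8 epithelial markers, CLDN7 (-1.29, adjusted p = 0.00589) and CLDN4 (-1.12, adjusted p = 0.00095), claudins of tight junctions, were called lower in r1-r4, beside 8.13% of all genes, and neither was with GC offsets (-0.54 and -0.62), beside 0.854%. The ciliated cell gene CAPS was called lower in r1-r4 (-1.48, adjusted p = 0.0111) and not with GC offsets (-0.50). No marker of alveolar type II cells, basal cells, stroma, vessel or blood was called in any comparison. In Oxy210 against Control, where all members lay below 0, so did 7 of 8 epithelial markers (median -0.21) and 3 of 4 basal markers (median -0.69), among them the keratins KRT14 (-1.40, adjusted p = 0.207) and KRT15 (-0.86, adjusted p = 0.326). Summed basal markers ranged from 139 to 295 CPM in Control and from 104 to 195 CPM in Oxy210. DCN, a fibroblast proteoglycan, had -1.27 in Oxy210 (adjusted p = 0.212). The host's stroma is of the mouse, and only reads assigned to the human genome were counted. Counts on these marker genes are therefore no measure of host cells. Where they come from, and their relation to the mucin differences, was not tested.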

How the data were processed

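Total RNA of 21 xenograft tumors was sequenced, 7 per group. According to the methods and the submitters' processing notes, reads were trimmed with Trimmomatic 0.39 and aligned with STAR 2.7.6a to combined human (GRCh38.p13) and mouse (GRCm39) genomes, and the authors deposited raw counts of human genes from featureCounts (Subread 2.0.1, uniquely mapped reads). The deposited log2 CPM values of Control and Oxy186 r1-r4 were made by the authors with edgeR's filter and TMM factors, and were used only to check the counts. Counts were refitted with edgeR 4.0.16 (R 4.3.3, filterByExpr, TMM, quasi-likelihood test, Benjamini-Hochberg over all genes tested), each comparison on its own groups. DESeq2 1.42.0 and limma 3.58.1 (voom, the study's test) were alternatives. GC offsets were splines with 4 degrees of freedom per library, and 99.8% of genes had a GC value. Log2 CPM used a prior count of 2. Correlations used values with group means removed and 100000 permutations within groups (exact within 1 group). Shares of all genes and gene pairs past the members' r were added after the data were seen. Scripts were tested on simulated data.

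Members and gene lists were chosen with earlier results of these data known. Genes named were the 9 members, the 2 nearest genes of each and, in each list, called genes, the 2 highest per kilobase and the extreme changes in both Oxy186 comparisons. The genes named for counts of 0 or near 0 (SFTPA1, SFTPA2, SFTPB, SFTPC, PTPRC, MUC7, NKX2-1, SCGB1A1, CLCA1) were chosen after their values were seen. The labels tie no tumors across groups. Fitted p-values weigh a group difference against the spread between these tumors, and those of correlations come from permutations within groups. At 13787493 to 17865119 counts per library, TFF2 rests on as few as 25 counts.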

Additional observations from a re-analysis of the deposited data

Results flagged for a closer look

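Each member was examined for a library far from the others in each group of 7 (gap to the nearest library over the range, against Dixon's 95% critical value). Of 27 groups, 0 held such a library, where chance gives about 1.35.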

How the results depend on the processing

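MUC1 and SPDEF in Oxy186 r1-r4 kept their direction under every alternative run. SPDEF was not called with GC offsets (-0.54, adjusted p = 0.117), and the other calls that changed are given here. Without a filter on low counts MUC5AC was called in r1-r4 (-1.11, adjusted p = 0.0108). Over all alternatives 385 values of member fold changes kept direction and call, 27 changed sign, 8 gained a call and 3 lost one.

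Counts of called genes that moved by more than 1.5 times were as follows. In Oxy210 against Control (0 and 0) DESeq2 called 19 lower and 3 higher, and no filter 7 lower. In Oxy186 against Oxy210 (0 higher), no filter, GC offsets and a single fit of all 21 libraries each called 1 higher. In r1-r4 (1370 lower, 36 higher), GC offsets called 144 lower and 58 higher, adjusted p alone 2526 and 797, and DESeq2 56, no filter 66 and the single fit 63 higher. Leaving out 1 library gave 955 to 1553 lower and 31 to 61 higher.

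Fold changes that changed sign follow, most of them near 0. The exceptions with GC offsets were MUC5B, from -0.42 in Oxy186 and -0.82 in r1-r4, and TFF3, from -0.34 in r1-r4. In Oxy186 against Control MUC13 was 0.0100 with DESeq2, 0.0100 with RLE normalization and 0.00221 in the single fit, and MUC5B 0.11 with GC offsets. In Oxy186 against Oxy210 voom gave MUC1 -0.23 and MUC5AC -0.0208, and GC offsets MUC1 -0.0399 and MUC5B 0.16. In r1-r4 AGR2 was 0.00694 with DESeq2, 0.00693 with RLE normalization, 0.0415 with voom and 0.00576 in the single fit, and -0.14 to 0.11 on leaving out 1 library, where MUC13 ran from -0.0108 to 0.126. GC offsets gave MUC5B 0.33, MUC13 -0.10 and TFF3 0.00815 there. The cause of these changes was not tested. Of the pairs, 13 passed in the main analysis and 6 with GC trends removed. With the trends left in, 0 passed within Oxy186 and 0 within Oxy210. There r of AGR2 and SPDEF was -0.40 and -0.52, and TFF1 and TFF2 had -0.14 within Oxy186.

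Deviations of tumors with the same number in different groups had r from -0.40 to 0.33. These values carry no test and cannot exclude a shared batch, and the labels state no pairing by number. With the replicate number as a block, Control tumors without an Oxy186 tumor of the same number add nothing to the r1-r4 difference. Those block fits therefore compare r1-r4 with Control r1-r4 only, fewer Control tumors than in the main comparison. There MUC5AC (-1.495, adjusted p = 0.0493), MUC5B (-1.11, adjusted p = 0.0419) and TFF2 (-1.27, adjusted p = 0.0281) were called. The share of all genes called in this fit is not given here, and was 8.13% lower in the main comparison. The Control tumors without weight include r6 and r7, the lowest for MUC5AC (2848 and 3739 CPM) and MUC5B (1436 and 1466 CPM). Control r6 was also the lowest for TFF2 (3.01 CPM). Control r5, likewise without weight, had 8934 CPM of MUC5AC and 2780 CPM of MUC5B. The replicate block gave Oxy210 against Control 1 lower gene, TFF2 (-1.28, adjusted p = 0.0341), and Oxy186 against Oxy210 MUC1 at -0.22. The replicate block with GC offsets gave 51 lower and 11 higher genes in r1-r4 with MUC5B at 0.26, MUC13 at -0.14, SPDEF at -0.69 (adjusted p = 0.166) and MUC1 at -1.13 (adjusted p = 0.0506). It gave MUC5B 0.0514 and TFF3 0.0582 in Oxy186 against Control, and 1 higher gene, MUC1 at -0.12 and MUC5B at 0.11 in Oxy186 against Oxy210.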
